A study of Mus musculus with 21 samples.

Results

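A set of 10 genes of the actin cytoskeleton was followed in CD4+ and CD8+ T cells of the mouse spleen, namely the thymosins Tmsb4x and Tmsb10, the actins Actb and Actg1, the filament turnover genes Pfn1, Cfl1 and Coro1a, and the Arp2/3 complex subunits Arpc1b, Arpc2 and Arpc3. They were chosen by name and for their function, with earlier results of these data known. All 10 were found among the 12994 genes of the expression table and all 10 passed the filter used in every test, a mean normalized count above 2. The cells came from female C57BL6/J mice in 1 of 2 kinds of housing. The enriched environment (EE) was a large cage of 12 to 15 mice with wheels, tunnels and toys, entered at weaning at the age of 4 weeks and kept for 4 weeks. The standard environment (SE) was a smaller cage of 5 to 6 mice that held no such objects, and the labels give no start or length for it. They were sorted from the spleen as CD45+ CD11b- CD3+ cells carrying CD4 or CD8. There were 6 CD4+ EE, 5 CD4+ SE, 6 CD8+ EE and 4 CD8+ SE libraries from 12 mice, of which 9 gave both populations. The labels state that the animals of one environment shared a cage, so the effect of housing and that of the cage cannot be told apart. The genotype was the same in every group.

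Actin exists in cells as free monomers and as filaments, and lymphocytes rebuild their filaments when they migrate and when they form a contact with an antigen-presenting cell. Thymosins hold monomers in reserve, profilin hands them to growing filament ends, and cofilin severs old filaments. The Arp2/3 complex starts new filaments as branches on existing ones, which builds the sheet-like front of a moving T cell, and coronin 1A binds filaments and the Arp2/3 complex in leukocytes.

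The values were read as counts of molecules rather than reads, since each cDNA carried a random tag at the 5′ end of the transcript. Totals ran from 145546 to 190885 molecules in the CD4+ libraries and from 179008 to 221454 in the CD8+ libraries. A normalized count is the number of molecules divided by the library's size factor. Cd4 itself averaged 58.4 ± 12.0 (SD, n = 11) in CD4+ and 0.374 ± 0.484 (n = 10) in CD8+ libraries, and the sum of Cd8a and Cd8b1 averaged 4.41 ± 2.47 and 304 ± 22.9. RNA of other cells was present. The sum of 10 B cell markers ran from 39.1 to 440 in CD4+ libraries and from 35.0 to 111 in CD8+ libraries, and 10 of 11 CD4+ libraries (185 to 440) were above all CD8+ libraries. The sum of 5 erythroid markers was 581 in CD8+ EE replicate 6 and 1033 in CD8+ SE replicate 3, and at most 26.7 in the other 19 libraries. In such sorted bulk samples fewer cells of a type and less RNA per cell cannot be told apart.

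The thymosin and actin genes are small families of closely related coding sequences, shown here because reads can be told apart only where the copies differ. The coding sequences of Tmsb4x (X:167207093-167209315, minus strand, GRCm38, 3 exons in the principal transcript) and Tmsb10 (6:72957347-72958748, minus strand, 2 exons) each span 135 bases and differ at 40 of them, an identity of 70.4%. Bases that differ between the paired genes are in capitals.
Tmsb4x: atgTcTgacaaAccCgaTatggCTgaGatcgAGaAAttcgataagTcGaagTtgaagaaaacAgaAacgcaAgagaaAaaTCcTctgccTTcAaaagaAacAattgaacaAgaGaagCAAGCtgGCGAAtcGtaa
Tmsb10: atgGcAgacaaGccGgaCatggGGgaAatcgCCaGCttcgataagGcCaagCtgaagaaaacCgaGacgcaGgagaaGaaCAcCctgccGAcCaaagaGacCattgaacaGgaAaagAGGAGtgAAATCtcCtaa
The coding sequences of Actb (5:142903115-142906754, minus strand, 6 exons) and Actg1 (11:120345690-120348542, minus strand, 6 exons) are closer, with 128 differing bases of 1128 and an identity of 88.7%. Their first 45 coding bases, which encode the start of the protein, differ at 9.
Actb: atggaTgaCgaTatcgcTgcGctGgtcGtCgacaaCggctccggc
Actg1: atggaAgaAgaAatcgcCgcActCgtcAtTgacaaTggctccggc

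Processed pseudogenes and other annotated copies share coding sequence with several of the 10 genes, so part of their molecules may have been counted under another name. Of the genes in the table, Tmsb10 shared at least 50 bases at 90% identity or more with Gm3788 (99.3% over 136 bases, mean normalized count 294) and with Gm9844 (98.5% over 135 bases, mean 228). Those levels are not small beside the 821 of Tmsb10, and the level of Tmsb10 is therefore uncertain. Actb shared 1080 bases at 93.2% with Lrrc58, whose mean was 34.6, and 329 bases at 91.5% with Actg1. Actg1 shared 1128 bases at 99.6% with the pseudogene Gm12715, whose mean was 29.1. Cfl1 shared 498 bases at 98.8% with Gm6180, whose mean was 26.9. No gene of the annotation shared that much coding sequence with Tmsb4x, Pfn1, Coro1a or Arpc3.

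Per kilobase of the principal transcript, averaged over 21 libraries, the normalized count was highest for Tmsb10 (1190 ± 91.6, SD) and Tmsb4x (957 ± 89.3). Pfn1 (403 ± 36.7) and Actb (391 ± 37.9) came next and did not differ beyond their spread on this scale. Coro1a (155 ± 11.4) and Cfl1 (119 ± 12.7) followed, then Actg1 (89.1 ± 13.6) and Arpc2 (57.0 ± 7.90). Arpc1b (27.6 ± 7.17) and Arpc3 (14.5 ± 5.60) were lowest. Each molecule was tagged once whatever its length, so the order by molecules is the one without scaling by length, and it differs. The mean normalized count was 821 for Tmsb10, 750 for Actb, 735 for Tmsb4x and 347 for Pfn1. Together the 10 genes held 2.14 ± 0.0979% of all molecules in the CD4+ libraries (SD, n = 11) and 1.93 ± 0.0466% in the CD8+ libraries (n = 10). The lowest CD4+ share, 1.996%, lay above the highest CD8+ share, 1.989%, by a narrow margin. How often the shares of other sets of genes separate was not counted. Tmsb4x, Tmsb10 and Actb alone held 1.38% in CD4+ and 1.26% in CD8+ libraries. Within groups the values of Tmsb4x and Tmsb10 were lower in libraries with more molecules, and CD4+ libraries tended to hold fewer. The part of library size in the share was not tested.

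**Figure D1:**
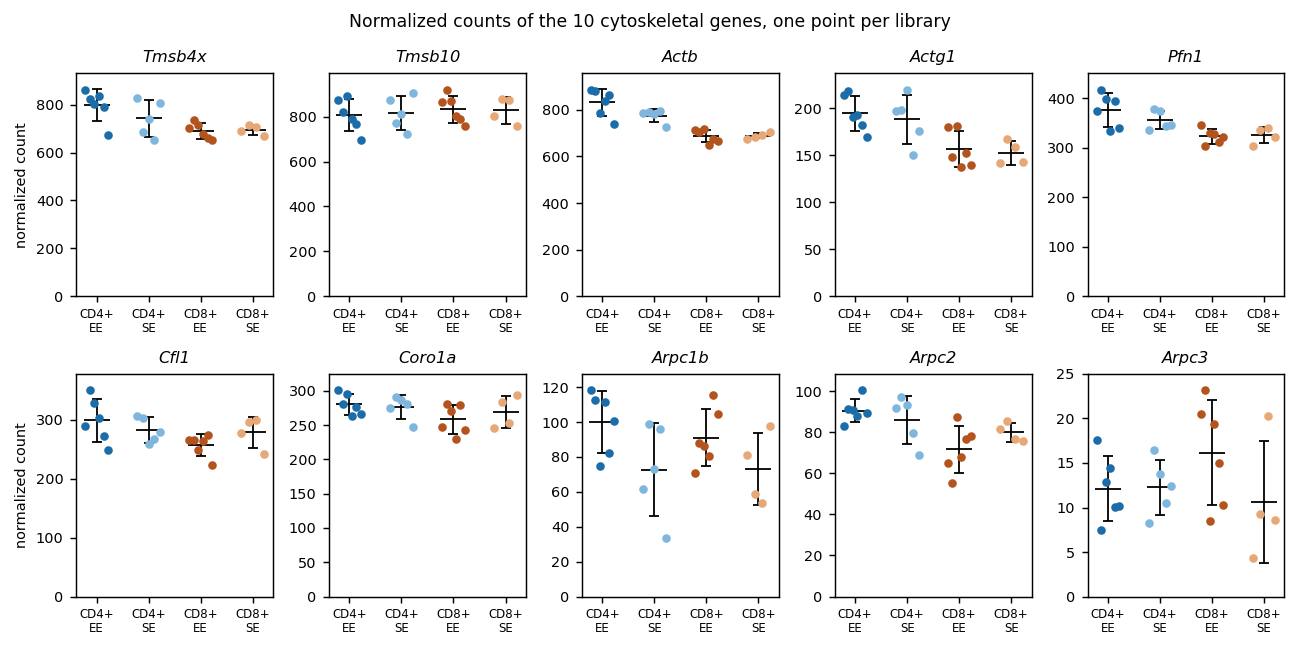
Normalized counts (vertical axis, from 0) of the 10 genes in the 4 groups, with 1 point for each library and black bars for the mean and SD. Actb of the CD4+ libraries (729 to 887) lies above that of all CD8+ libraries (651 to 716), while Tmsb10 covers much the same range in every group.

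The title of the series names the comparison of CD4+ with CD8+ T cells. Both actin genes were higher in CD4+ cells. Actb by a factor of 1.17 and Actg1 by a factor of 1.24 passed the threshold of an adjusted p of 0.05 (limma across all genes, Benjamini-Hochberg), the other 8 genes did not, and no member was called lower. Over all genes tested, 4.4% were called in this comparison (349 of 7938), and 2.33% were called higher in CD4+ cells. The median log2 difference of the 10 genes was 0.13, with 8 above 0 and 2 below, beside a median of -0.01 and 48.9% above 0 over all genes.

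Actb encodes β-actin, the more abundant of the cytoplasmic actins in these libraries. Its normalized count in CD4+ EE libraries had a lowest value of 741, a median of 849 and a highest of 887. The CD4+ SE libraries gave 786, 789, 781, 794 and 729. In CD8+ EE libraries the lowest, median and highest were 651, 690 and 716, and the CD8+ SE libraries gave 677, 683, 693 and 704. All 11 CD4+ values were thus above all 10 CD8+ values, a separation seen for 0.869% of the genes tested. The log2 difference was 0.22 (SE 0.05, 95% interval 0.13 to 0.31, limma adjusted p = 0.000603). CD4+ exceeded CD8+ in 9 of 9 mice, by ratios of 1.04 to 1.28. Within EE the log2 difference was 0.27 (limma adjusted p = 0.00236), the single member called there against 2.66% of all genes. Within SE it was 0.17 (limma adjusted p = 0.353, unadjusted p = 0.0185), and 0 of 10 members were called there against 1.51% of all genes. The groups did not overlap in either environment, as for 1.98% of the genes in EE and 3.67% in SE.

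Actg1 encodes γ-actin, which differs from β-actin in only a few residues. Its normalized count in CD4+ EE libraries had a lowest value of 169, a median of 191 and a highest of 218, and the CD4+ SE libraries gave 197, 198, 219, 150 and 176. The CD8+ EE libraries had a lowest value of 137, a median of 150 and a highest of 181, and the CD8+ SE libraries gave 141, 167, 159 and 142. The populations overlapped, with 8 of 11 CD4+ libraries above every CD8+ library. The log2 difference was 0.30 (SE 0.08, 95% interval 0.15 to 0.46, limma adjusted p = 0.00918), and CD4+ was higher in 9 of 9 mice. Within EE it was 0.32, called with the mouse as a block (adjusted p = 0.0390) but not without it (adjusted p = 0.0810). Within SE it was 0.29 (limma adjusted p = 0.324). The ratio of Actb to Actg1 within a library ran from 3.56 to 5.29 in CD4+ and from 3.96 to 4.95 in CD8+ libraries, and these ranges overlapped.

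**Figure D2:**
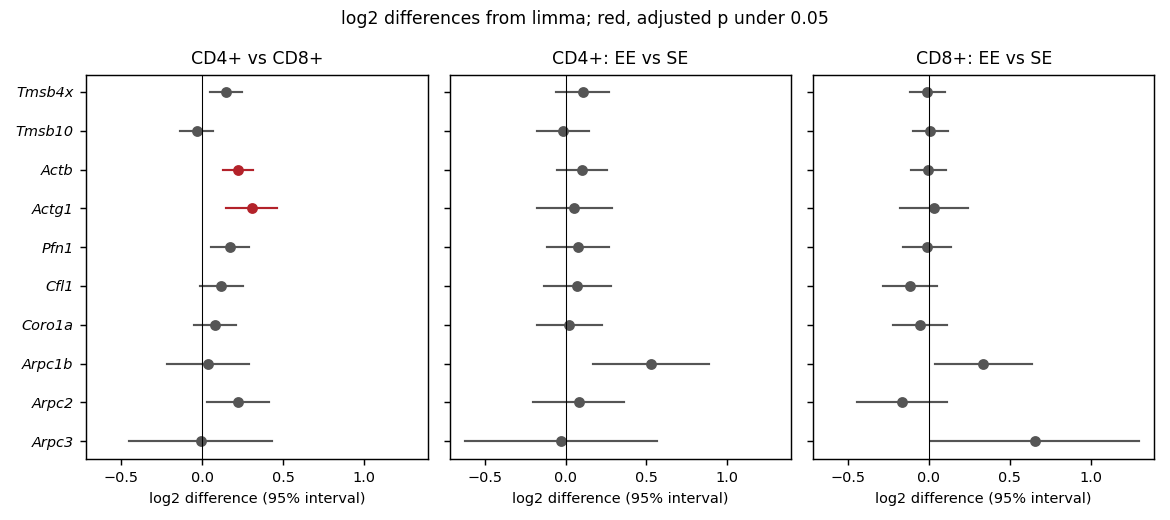
log2 differences of the 10 genes (points) with 95% intervals (lines) between CD4+ and CD8+ cells and between EE and SE within each population, where a positive value means higher in CD4+ or in EE. Only Actb (0.22) and Actg1 (0.30) between the populations are red, which marks an adjusted p under 0.05.

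The libraries of the populations differed in size and in other RNA, and these values stand beside the actin results. With the log2 of total molecules as a term in the fit, an alternative added after seeing the data, the differences were 0.20 for Actb (limma adjusted p = 0.0542) and 0.29 for Actg1 (adjusted p = 0.158). Between 179008 and 190885 molecules, a range that 4 CD4+ and 3 CD8+ libraries shared, Actb was 741 to 862 in CD4+ and 651 to 705 in CD8+ libraries. Actg1 was 169 to 219 and 137 to 148 in the same libraries. The populations did not overlap in these 7 libraries for 4 of 10 members (Actb, Actg1, Pfn1 and Arpc2), as for 9.91% of all genes. With these 7 libraries alone the log2 difference was 0.20 for Actb (limma adjusted p = 0.290) and 0.42 for Actg1 (limma adjusted p = 0.126). Without the 2 CD8+ libraries rich in erythroid RNA both stayed under the threshold (adjusted p = 0.00322 and 0.0252). The B cell marker sum was higher in 10 of 11 CD4+ libraries than in any CD8+ library, as given above, and its part in the actin results was not tested.

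**Figure D3:**
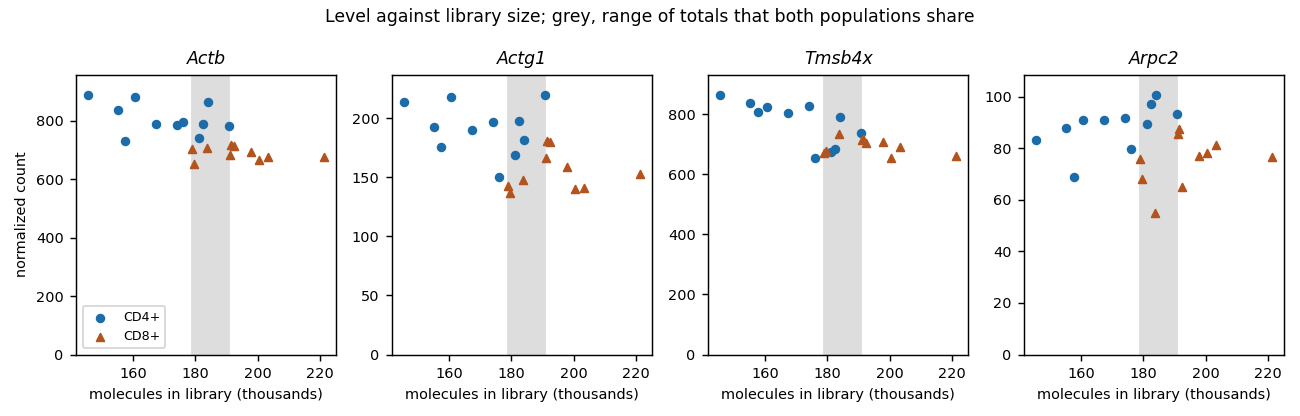
Normalized counts (vertical axes, from 0) of Actb, Actg1, Tmsb4x and Arpc2 against the molecules in each library, with circles for CD4+ and triangles for CD8+ libraries. In the grey band of shared totals, Actb, Actg1 and Arpc2 of the 4 CD4+ libraries lie above those of the 3 CD8+ libraries, whereas Tmsb4x overlaps (673 to 791 and 669 to 735).

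Neither thymosin gene was called between the populations. Thymosin β4, the product of Tmsb4x, is a main buffer of actin monomers in blood cells. Its normalized count in CD4+ EE libraries had a lowest value of 673, a median of 814 and a highest of 863, and the CD4+ SE libraries gave 828, 685, 739, 654 and 808. CD8+ EE libraries had a lowest value of 653, a median of 690 and a highest of 735, and CD8+ SE libraries gave 691, 713, 706 and 669. Of 11 CD4+ libraries, 8 were above all CD8+ libraries and the other 3 lay within the CD8+ range. The log2 difference was 0.15 (SE 0.05, 95% interval 0.05 to 0.25) with a limma adjusted p of 0.0820. It passed with the mouse as a block (0.18, adjusted p = 0.0134), a fit in which the 3 mice with 1 population carry no weight, and with all libraries scaled to the same total (0.17, adjusted p = 0.00285). It also passed without CD4+ EE replicate 6 (adjusted p = 0.0233) or CD4+ SE replicate 5 (adjusted p = 0.0330). The difference was 0.05 with total molecules as a term (adjusted p = 0.838) and 0.07 in the shared range of totals (adjusted p = 0.834). Within EE the log2 difference was 0.21 (adjusted p = 0.0719, or 0.0212 with the mouse as a block) and within SE 0.09 (adjusted p = 0.789).

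Tmsb10, the second thymosin, had a lowest value of 695, a median of 811 and a highest of 907 over the CD4+ libraries, and 756, 833 and 920 over the CD8+ libraries. The ranges overlapped almost wholly. The log2 difference was -0.03 (95% interval -0.14 to 0.07, limma adjusted p = 0.822), and CD4+ exceeded CD8+ in 4 of 9 mice. The ratio of Tmsb4x to Tmsb10 within a library needs no scaling between libraries. It ran from 0.887 to 1.06 in CD4+ and from 0.799 to 0.884 in CD8+ libraries, without overlap and higher in CD4+ in 9 of 9 mice. Such a separation was found for 1.56% of the 5565 ratios between genes with means above 300. Where Gm3788 and Gm9844 were added to Tmsb10, the ranges were 0.510 to 0.679 and 0.466 to 0.556 and overlapped.

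**Figure D4:**
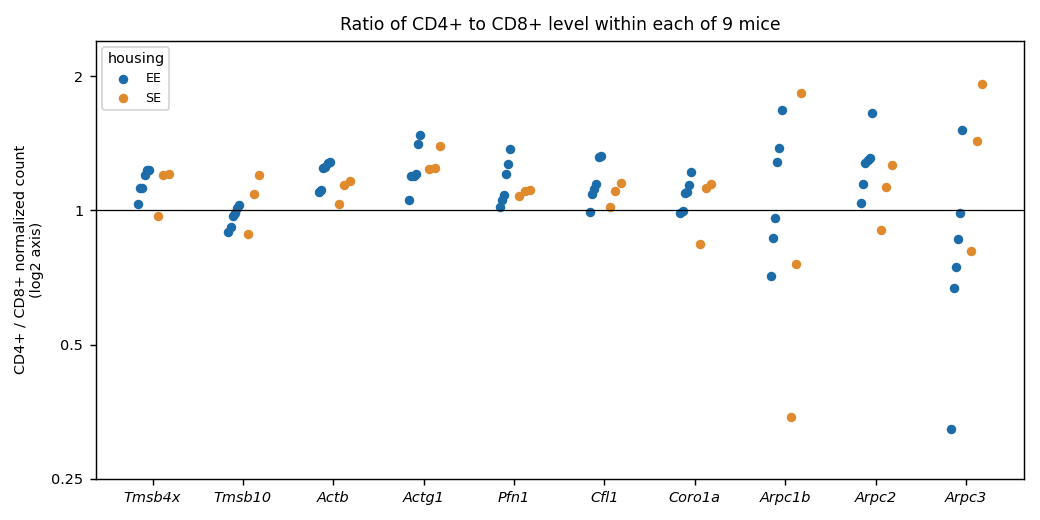
Ratio of the CD4+ to the CD8+ normalized count (log2 axis) within each of the 9 mice that gave both populations, blue for EE and orange for SE. The ratios of Actb, Actg1 and Pfn1 are above 1 in all 9 mice and those of Tmsb10 in 4 of 9, while Arpc1b and Arpc3 spread from under 0.35 to over 1.8.

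None of the 3 genes of filament turnover was called between the populations. Pfn1 encodes profilin 1, which loads monomers onto filament ends. Its normalized count ran from 333 to 417 in CD4+ and from 303 to 346 in CD8+ libraries, with 7 of 11 CD4+ libraries above all CD8+ ones. The log2 difference was 0.17 (95% interval 0.05 to 0.29, limma adjusted p = 0.0883), and CD4+ was higher in 9 of 9 mice. It passed in DESeq2 (adjusted p = 0.0349) and with libraries scaled to the same total (adjusted p = 0.0158). Cfl1, which encodes the severing protein cofilin 1, ran from 249 to 351 in CD4+ and from 223 to 299 in CD8+ libraries (log2 difference 0.12, 95% interval -0.02 to 0.25, adjusted p = 0.441). Coro1a, which encodes coronin 1A, ran from 247 to 301 and from 230 to 294 (log2 difference 0.08, 95% interval -0.05 to 0.21, adjusted p = 0.635). For Cfl1 and Coro1a the groups overlapped widely.

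None of the 3 subunits of the Arp2/3 complex was called between the populations. Arpc2, which encodes a structural core subunit, ran from 68.7 to 101 in CD4+ and from 55.1 to 87.4 in CD8+ libraries, with 8 of 11 CD4+ libraries above all CD8+ ones. Its log2 difference of 0.22 (95% interval 0.03 to 0.41) had a limma adjusted p of 0.244, and CD4+ was higher in 8 of 9 mice. It was 0.39 with total molecules as a term (adjusted p = 0.100) and 0.47 in the shared range of totals (adjusted p = 0.279). Arpc1b, which encodes the haematopoietic form of the subunit that receives activators, ran from 33.8 to 118 and from 53.9 to 115 (log2 difference 0.04, 95% interval -0.22 to 0.29). Arpc3, a small subunit, was counted by only 5 to 24 molecules in a library. Its log2 difference was -0.01 with a wide 95% interval of -0.45 to 0.43, which holds differences in either direction.

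Enriched and standard housing were compared within each population, the question the series was designed for. No member passed in either population. In CD4+ cells limma called 0 of 10 members against 0.0126% of all genes (1 of 7939), and in CD8+ cells 0 of 10 against 0% (0 of 7840). At an unadjusted p under 0.05 there were 1 and 2 members, against 5.82% and 5.27% of all genes. edgeR and DESeq2 also called 0 members in both. The median log2 difference between EE and SE over the 10 genes was 0.07 in CD4+ and -0.01 in CD8+ cells, beside 0.00 and -0.01 over all genes.

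For the abundant members the intervals were narrower in CD8+ than in CD4+ cells. They rest on the spread among libraries, and the EE and SE difference they describe is one of housing and cage together. In CD8+ cells the 95% interval of the log2 difference was -0.12 to 0.10 for Tmsb4x, -0.10 to 0.12 for Tmsb10 and -0.11 to 0.10 for Actb. In CD4+ cells it was -0.06 to 0.27 for Tmsb4x, -0.18 to 0.15 for Tmsb10 and -0.05 to 0.25 for Actb. For Actb, 4 of 6 CD4+ EE libraries were above all 5 SE libraries and the other 2 were within or near the SE range (log2 difference 0.10, adjusted p = 0.910). Pfn1, Cfl1, Coro1a, Actg1 and Arpc2 had log2 differences between 0.02 and 0.08 in CD4+ cells and between -0.17 and 0.03 in CD8+ cells.

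Arpc1b had the smallest p of the 10 members for housing in both populations. CD4+ EE libraries had a lowest value of 74.8, a median of 106 and a highest of 118, and the CD4+ SE libraries gave 61.8, 98.8, 73.1, 95.9 and 33.8. The groups overlapped, although 4 of 6 EE libraries were above all SE libraries. The log2 difference was 0.53 (SE 0.18, 95% interval 0.17 to 0.89, unadjusted p = 0.00457, limma adjusted p = 0.629). It was 0.28 without CD4+ SE replicate 6, the library with 30 molecules of Arpc1b. CD8+ EE libraries had a lowest value of 70.7, a median of 87.2 and a highest of 115, and the CD8+ SE libraries gave 81.4, 58.7, 53.9 and 98.0. The log2 difference there was 0.34 (unadjusted p = 0.0272, limma adjusted p = 0.923), and 0.16 without the 2 libraries rich in erythroid RNA. Neither difference passed, and each moved by over 1.5 times with the libraries named.

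Arpc3 in CD8+ cells had a log2 difference of 0.66 between EE and SE (95% interval 0.01 to 1.30, limma adjusted p = 0.923), which was 1.11 without the 2 libraries rich in erythroid RNA (adjusted p = 0.867). The CD8+ EE values ran from 8.46 to 23.2 with a median of 17.2, and the SE values were 4.28, 9.31, 20.3 and 8.65. These groups overlapped. A test of whether the housing difference itself differed between the populations called 0 of 10 members (limma, against 0% of all genes, with 0 members and 4.95% of all genes at an unadjusted p under 0.05). edgeR and DESeq2 called none in that test either.

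A sum was taken of 11 markers of antigen-experienced T cells, of which Crip1 (mean normalized count 137) and S100a10 (93.7) were the most abundant. This sum averaged 598 ± 123 in CD4+ EE and 396 ± 68.1 in CD4+ SE libraries, and 423 ± 65.3 and 373 ± 74.3 in the CD8+ groups. Its mean, like that of Arpc1b, was higher in EE in both populations, and its part in the values of Arpc1b was not tested.

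Other genes of the actin machinery were counted from lists by role. Of 107 such genes, 100 were in the table and 90 were tested between the populations. Of these 90, 4 were called higher in CD4+ and 2 lower, which is 6.67% against 4.4% of all genes. The share called over all genes depends on abundance, and with a mean above 10 it was 216 of 2727. The median log2 difference was 0.06 with 57 of 90 above 0. Of 6 further Arp2/3 subunits, Actr2, Actr3, Arpc1a, Arpc4, Arpc5 and Arpc5l, 0 were called, with log2 differences from -0.03 to 0.44. Of 14 activators of the complex and their partners 0 were called, as of 2 genes for SRF and its coactivators.

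Capg encodes a protein that caps filament ends. It ran from 6.41 to 22.9 in CD4+ libraries and from 0 to 5.77 in CD8+ libraries, where it was at 0 in 4 of 10. The groups did not overlap, and the log2 difference on the log2(normalized count + 1) scale was 2.51 (limma adjusted p = 1.81e-08). It was called within EE (2.34) and within SE (2.67) as well. Capg and Fmnl3 passed the filter only through the CD4+ libraries, with means of 12.4 and 4.99 there and of 1.99 and 1.38 in CD8+ libraries. With no filter Capg was still called (adjusted p = 1.62e-09), and Fmnl3 was not (adjusted p = 0.0591). Flna, which encodes the crosslinker filamin A, had a log2 difference of 0.53 (adjusted p = 0.0154). It had 0.47 without CD4+ SE replicate 3 (adjusted p = 0.0546) and 0.60 with total molecules as a term (adjusted p = 0.0895). Myl6, a light chain of myosin, had 0.29 (adjusted p = 0.0276), with an adjusted p of 0.0542 when the mouse was a block and of 0.0765 without the 2 libraries rich in erythroid RNA, and it passed in 14 of 21 fits that each left out 1 library. With total molecules as a term Myl6 had 0.20 (adjusted p = 0.530), and in the shared range of totals 0.02 (adjusted p = 0.973). Fmnl3, which encodes a formin, had 1.24 (adjusted p = 0.0420) at normalized counts of 0 to 16.9, and did not pass in edgeR (0.0575) or DESeq2 (0.0652). It passed in 8 of 21 fits that each left out 1 library, and with total molecules as a term it had 0.86 (adjusted p = 0.571). In the shared range of totals none of these 4 genes was called, with differences of 1.76 for Capg (adjusted p = 0.194), 0.59 for Flna (adjusted p = 0.536) and 0.63 for Fmnl3 (adjusted p = 0.816).

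The genes called lower in CD4+ cells encode proteins that bind filaments. Tagln2, which encodes transgelin 2, ran from 53.2 to 101 in CD4+ and from 96.3 to 151 in CD8+ libraries (log2 difference -0.61, limma adjusted p = 3.56e-06). It was called within EE (-0.54) and within SE (-0.69), although with the mouse as a block the SE adjusted p was 0.0783. Zyx, which encodes the adhesion protein zyxin, ran from 6.41 to 19.0 in CD4+ and from 10.3 to 26.1 in CD8+ libraries (log2 difference -0.76, adjusted p = 0.00767). Within EE, Zyx (-1.11) and Limk1, which encodes a kinase that inactivates cofilin, were also called lower in CD4+ cells. Neither was called within SE, with -0.42 for Zyx (limma adjusted p = 0.733) and -0.15 for Limk1 (limma adjusted p = 0.982). Over both environments Limk1 was not called (-1.10, limma adjusted p = 0.0883). Limk1 was at 0 in 4 of 6 CD4+ EE libraries and at 2.91 to 5.53 in CD8+ EE libraries (log2 difference -2.04, adjusted p = 0.00626), and with total molecules as a term it had -1.81 (adjusted p = 0.225). Limk1 passed the filter only through the CD8+ libraries, with means of 3.59 there and 1.07 in CD4+ libraries, and with no filter its adjusted p within EE was 0.00881. In the shared range of totals neither Tagln2 (-0.61, adjusted p = 0.117) nor Zyx (-1.01, adjusted p = 0.224) was called between the populations.

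**Figure D5:**
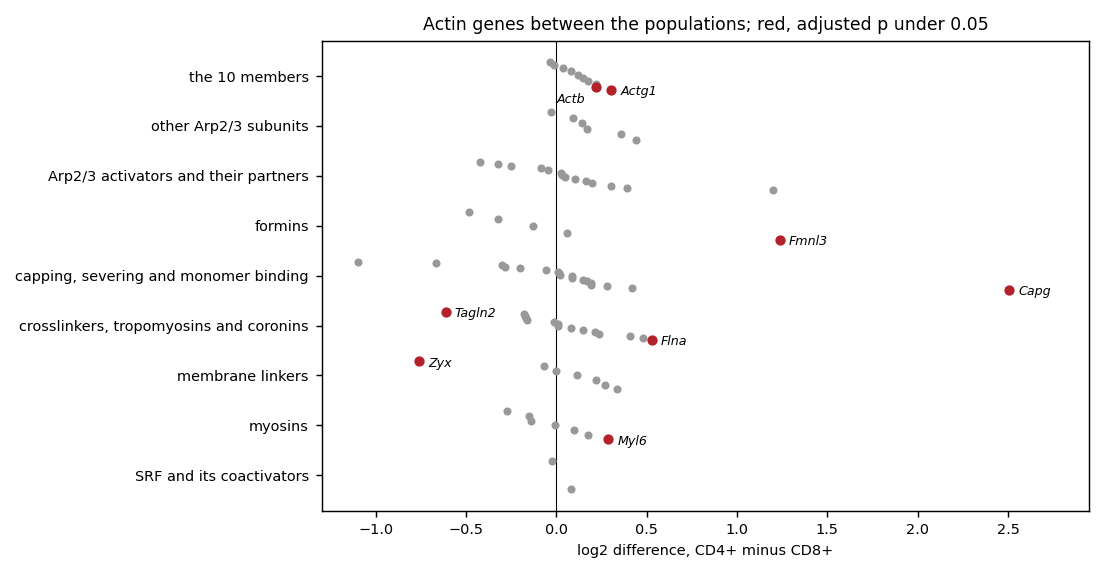
log2 difference between CD4+ and CD8+ cells (horizontal axis, positive for higher in CD4+) of the 10 members and of the tested genes of the actin lists named here, grouped by role. Red points passed an adjusted p of 0.05, from Capg at 2.51 to Zyx at -0.76, and all other genes are grey.

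Between the environments 0 of 91 tested genes of these lists were called in CD4+ cells and 0 of 86 in CD8+ cells (limma), with 6 (2 higher in EE and 4 lower) and 3 (1 higher and 2 lower) at an unadjusted p under 0.05. Over all genes these shares were 0.0126% and 0% called, and 5.82% and 5.27% at an unadjusted p under 0.05. Among genes with means above 10 in the population compared, the smallest p of the lower genes in CD4+ cells was that of Zyx, at 6.41 to 11.9 in EE and 9.14 to 19.0 in SE libraries (-0.66, adjusted p = 0.829). Below that limit 2 formin genes had smaller p in CD4+ cells without passing, Diap2 (-1.94, unadjusted p = 0.00125, adjusted p = 0.629) and Fmnl3 (-1.22, unadjusted p = 0.0153, adjusted p = 0.765), both chosen after their values were seen. Brk1, from the list of Arp2/3 activators and their partners, was 1 of the 2 higher genes in CD4+ cells (0.46, limma unadjusted p = 0.0122, adjusted p = 0.741). It was also chosen after its values were seen. In CD8+ cells, for means above 10, the smallest p of the higher genes was that of Arpc5l, an Arp2/3 subunit (0.53, adjusted p = 0.945), and that of the lower genes was that of Myh9, the heavy chain of non-muscle myosin (-0.39, adjusted p = 0.923). Below that limit, Limk1 was higher in EE in CD8+ cells (1.07, limma unadjusted p = 0.0310, adjusted p = 0.923). Diap2 was lower there too (-1.17, limma unadjusted p = 0.0395, adjusted p = 0.923). Neither passed, and both were chosen after their values were seen.

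Among libraries of one group, the variance of Tmsb10 was 5.73 times that of counting alone and that of Tmsb4x 4.20 times, near the median of 4.42 over 106 genes with means above 300. Actb, at 1.89 times, lay below that median. The variance of Arpc1b was 4.93 times that of counting, where 317 genes with means from 50 to 150 had a median of 2.01 and a 95th percentile of 4.20. Arpc1b had a coefficient of variation of 23.7% where counting gives 10.7%. Arpc2, at a similar count, had 11.1% where counting gives 10.9%. Actb varied by 4.96%.

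The thymosins varied together. Over 21 libraries the deviations of Tmsb4x and Tmsb10 from their group means had a Pearson correlation of 0.87 and a Spearman correlation of 0.88, and those of Tmsb10 and Arpc1b had -0.62 and -0.64. Values of one library share its size factor and depth, so these are descriptions. The slope of the log2 value on log2 total molecules within groups was -0.53 for Tmsb4x and -0.50 for Tmsb10, as for the 106 genes with means above 300, whose median slope was -0.50. It was -0.14 for Actb, 0.70 for Arpc1b and 0.90 for Arpc2. The 5 other genes most like the average of the 10 in these deviations, of 2717 compared, were Cggbp1 (Pearson 0.75, Spearman 0.76), Atp5f1 (0.75, 0.68), Rpl8 (0.74, 0.66), Yipf3 (0.73, 0.76) and Itm2b (0.73, 0.68).

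Serum response factor, a regulator of many actin genes, binds a motif called the CArG box. Promoters of 9 of the 10 genes (all but Actb, which was not searched), from 250 bases before to 50 after the start in RefSeq on GRCm38.p6, were searched for it on both strands. Of these 9 it was found in Actg1 alone, starting 90 bases before the start site, while 1.63% of 32851 promoters held it. The 30 bases around it (chr11:120348566-120348595, minus strand) are shown with the motif in capitals.
Actg1 promoter: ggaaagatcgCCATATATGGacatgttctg
A match is a description of the letters and does not show binding.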

How the data were processed

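The submitters' processing notes name cutadapt, STAR 2.4.0a, DESeq2 and mm10 (GRCm38). The study's methods describe counting of distinct tags with the Drop-seq tools for other libraries of the study and a filter on low-abundance genes whose limit is not given in the sources used here. The use of both for these spleen libraries is assumed, and the deposited signal is read accordingly as a molecule count divided by a DESeq2 size factor. Tags had 20736 possible sequences, and where tags 1 base apart are merged, counts of abundant genes can be compressed. That part was not tested.

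Values were divided by each library's smallest positive value, which gave whole molecules for 100% of values (largest distance from a whole number 1.24e-06). Log2(normalized count + 1) was tested with limma 3.58.1 in R 4.3.3 (trend), for genes with a mean above 2 and with Benjamini-Hochberg adjustment over all of them. Environments were compared within each population, and the populations and the interaction in 1 fit of all 21 libraries. Alternatives were other pseudocounts, filters and scaling, edgeR 4.0.16 and DESeq2 1.42.0 on the molecules, a block, and each library left out. Total molecules as a term, a shared range of totals and the exclusion of 2 libraries were added after seeing the data. The fits were tested on simulated data.

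CD4+ and CD8+ libraries to which the labels give the same environment and animal number were taken to come from the same mouse, which is the source of the block. The deviations of these 9 pairs from their group means correlated at -0.01 to 0.04 (mean 0.01, 7938 genes). All 46 pairs of replicates differed beyond sampling noise. The members and lists were chosen with earlier results of these data known. Named pathway genes are those past the threshold in a comparison and, for housing, the gene with the smallest p in each direction among those with means above 10. One of these lists and 1 gene of it count in the totals but are not reported here. Sequences and positions come from GENCODE on GRCm38 and RefSeq, and Python 3.11.15 was used for the other steps.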

Additional observations from a re-analysis of the deposited data

Results flagged for a closer look

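In groups of 4 to 6 libraries, 1 library stood apart from the rest by Dixon's criterion in 4 of 80 groups (20 genes in 4 groups each), and chance flags about 1 group in 20. Among the 10 members this was seen once. Actb was 729 in CD4+ SE replicate 6, below the 781 to 794 of the other 4 libraries, and the value was still above all CD8+ libraries. Capg was 5.77 in CD8+ SE replicate 6 and 0 in the other 3 libraries. Tagln2 was 151 in CD8+ EE replicate 3, with 107 to 123 in the other 5. Limk1 was 2.91 in CD8+ EE replicate 4, with 4.65 to 5.53 in the other 5.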

How the results depend on the processing

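The count of 2 members called between CD4+ and CD8+ cells became 4 with libraries scaled to the same total and 0 both with total molecules as a term and in the shared range of totals. The 6 pathway genes called became 3 and 0 under these last alternatives. Within EE the 1 member called became 4 with the same total, 3 with the replicate block and 0 with total molecules as a term, and the 4 pathway genes became 2 with a mean above 10. Within SE the 2 pathway genes became 1 with a mean above 10 and 1 with the replicate block. With each library left out in turn, members called ranged from 2 to 3 over all libraries, from 1 (lowest) to 2 (highest, without CD4+ EE replicate 6) within EE, and stayed at 0 within SE and between environments. Over all genes, the 349 called between populations became 216 with a mean above 10, 198 with total molecules as a term and 67 in the shared range of totals. The 211 within EE became 105 with total molecules as a term, and the 120 within SE became 76 with a mean above 10. In the shared range they were 34 within EE (2 CD4+ and 2 CD8+ libraries) and 29 within SE (2 and 1). Between environments the count over all genes ran from 0 to 3 in each population. Apart from Tmsb4x and Actg1, the replicate block changed the call of no member, and the cause of these moves was not tested, apart from fewer genes tested with a mean above 10 and 7 libraries in the shared range. The animal numbers of EE and SE are different mice, and as a block they called 0 members.

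Differences close to 0 changed sign under some alternatives, and none of these was called on either side. Against the values given in the report, the replicate block gave 0.087 for Arpc3 between environments in CD4+ cells, 0.013 for Tmsb4x and 0.022 for Actb in CD8+ cells, and 0.011 for Tmsb10 and -0.11 for Arpc1b between populations. Without the 2 libraries rich in erythroid RNA, Tmsb4x was 0.014, Actb 0.0075 and Pfn1 0.012 between environments in CD8+ cells, and Arpc1b was -0.0054 and Arpc3 0.11 between populations. Scaling to the same total gave -0.0048 for Tmsb10 in CD8+ cells and 0.0065 for Arpc3 between populations, edgeR gave 0.0023 for Actb in CD8+ cells, and the shared range of totals gave -0.046 for Arpc1b. With each library left out in turn, the difference between environments in CD4+ cells ran from -0.024 to 0.11 for Actg1, -0.15 to 0.087 for Arpc3, -0.017 to 0.042 for Coro1a and -0.060 to 0.025 for Tmsb10. In CD8+ cells it ran from -0.016 to 0.011 for Actb, -0.012 to 0.076 for Actg1, -0.044 to 0.010 for Pfn1, -0.034 to 0.039 for Tmsb10 and -0.028 to 0.0065 for Tmsb4x. Between populations it ran from -0.029 to 0.16 for Arpc1b and -0.17 to 0.16 for Arpc3. Of 890 values of members under the alternatives, 818 stayed on the same side of both 0 and the threshold, 56 changed sign, 11 moved past the threshold and 5 fell short of it.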

Other observations

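The 2 abundant copies of Tmsb10, Gm3788 and Gm9844, had lower means in EE than in SE in CD4+ cells. Gm3788 was 213 to 286 in CD4+ EE and 257 to 386 in CD4+ SE libraries (log2 difference -0.30, unadjusted p = 0.00684, limma adjusted p = 0.681). Gm9844 was 182 to 208 and 196 to 289 (log2 difference -0.28, unadjusted p = 0.0147, limma adjusted p = 0.764). Neither passed, and both groups overlapped. Tmsb10 itself had a log2 difference of -0.02. The sum of Tmsb10 with both copies averaged 1257 ± 82.5 in CD4+ EE, 1371 ± 150.2 in CD4+ SE, 1367 ± 80.2 in CD8+ EE and 1401 ± 140 in CD8+ SE libraries, with overlapping ranges. These genes were chosen after their values were seen.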
